A study of Homo sapiens with 16 samples.

Results

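The Krueppel-like factors (KLFs) are a family of zinc finger transcription factors, and 10 of them (KLF2, KLF3, KLF4, KLF6, KLF7, KLF9, KLF10, KLF11, KLF13 and KLF16) were followed here through their transcripts. They were taken by gene symbol from a table of 42351 genes. All 10 passed the filter on low counts, among 15067 genes tested. RNA had been sequenced from 2 human lung cancer lines, A549 with wt MET and NCI-H596 with MET∆14, a form of the HGF receptor whose transcript skips the exon for part of the juxtamembrane region. Cells of both lines were deprived of serum, for 12 h by the labels and longer by the methods of the study, and then received HGF, the ligand of MET, for 0, 3, 6 or 12 h, with 2 libraries for each of the 8 conditions and 16 in all. Each MET status was represented by 1 line, so MET status and line cannot be told apart. NCI-H596 is an adenosquamous carcinoma line that expresses MET∆14 alone, whereas A549 is an adenocarcinoma line. The untreated libraries were collected at 0 h only, so that the effect of HGF and of the time spent without serum cannot be told apart either.

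All KLFs share C-terminal zinc fingers that bind GC boxes and CACCC boxes in promoters, and they differ in the N-terminal parts that recruit partners. KLF2, KLF4, KLF6 and KLF7 act mainly as activators. KLF3 represses through the corepressor CtBP, whereas KLF9, KLF10, KLF11, KLF13 and KLF16 can bind the SIN3 corepressor. Several members are early response genes: KLF2 is induced through MEF2 factors, KLF10 and KLF11 were described as genes induced by TGF-beta, and KLF9 is a target of the glucocorticoid receptor. In epithelia the family is known for balancing growth against differentiation.

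The promoter letters of KLF2, KLF9 and KLF16 are shown because the transcripts of these genes moved in different ways, with an early rise of KLF2 in A549 and opposite responses of KLF9 and KLF16 in NCI-H596. The sequences are the 250 bases before the RefSeq start site on the strand of the gene, build GRCh38.p14, and no annotated exon overlapped them. The KLF2 window lies at chr19:16324576-16324825 on the plus strand, and its capitals mark a MEF2 site found by a search of both strands. The KLF9 window lies at chr9:70414658-70414907 on the minus strand and holds none of the motifs searched. The KLF16 window lies at chr19:1863580-1863829 on the minus strand, and its capitals mark GC boxes (GGGCGG or its complement), 2 of which share a base.
KLF2: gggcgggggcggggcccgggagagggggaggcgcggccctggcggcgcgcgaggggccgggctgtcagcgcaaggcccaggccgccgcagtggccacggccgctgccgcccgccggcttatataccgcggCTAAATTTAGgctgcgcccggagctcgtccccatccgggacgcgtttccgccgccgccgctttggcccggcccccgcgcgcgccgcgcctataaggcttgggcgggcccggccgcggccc
KLF9: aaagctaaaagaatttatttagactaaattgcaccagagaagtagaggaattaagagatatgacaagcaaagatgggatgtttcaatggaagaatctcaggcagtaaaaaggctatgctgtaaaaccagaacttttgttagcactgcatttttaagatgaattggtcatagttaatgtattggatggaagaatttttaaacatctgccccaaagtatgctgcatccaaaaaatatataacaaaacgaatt
KLF16: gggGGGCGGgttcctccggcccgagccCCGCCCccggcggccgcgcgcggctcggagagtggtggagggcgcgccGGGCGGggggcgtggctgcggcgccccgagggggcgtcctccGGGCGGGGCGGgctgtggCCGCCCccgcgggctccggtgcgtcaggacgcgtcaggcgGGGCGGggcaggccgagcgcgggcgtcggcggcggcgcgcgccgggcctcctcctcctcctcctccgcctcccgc

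In all, 8 motifs were searched on both strands of such windows, which RefSeq gave for 8 of the 10 members (not for KLF3 and KLF10). A member was counted where any of its windows held a match, and KLF7 and KLF11 had more than 1 window. The shares of all windows are per single window, so counts of members and these shares are unlike measures. The MEF2 site was found in 1 of the 8, as CTAAATTTAG in KLF2 from base -120 to base -111 before the start, and in 2.8% of all 35114 promoter windows. A GC box was found in 7 of the 8, all but KLF9, and in 42.6% of all windows. KLF16 held 7 GC boxes and KLF2 held 4. In G and C content the KLF16 window stood at 86.4% and the KLF2 window at 80%, against a median of 58% over all windows and 32.4% in KLF9. The E-box CACGTG occurred in 4 of the 8 (KLF4, KLF6, KLF7 and KLF11; 6.35% of all windows), and CACCC in 3 (KLF7, KLF11 and KLF13; 54.7%). A CArG box, the site of SRF, was found in KLF7 (1.16% of all windows) and the CRE TGACGTCA in KLF11 (1.65%). The FOXO site GTAAACA (2.98%) and the AP-1 site TGANTCA (6.57%) were found in 0 of the 8. GC and CACCC boxes can overlap each other. These matches describe letters in the windows and say nothing about binding.

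Total counts per library ranged from 13226488 to 21970052 in A549 and from 10158590 to 23909304 in NCI-H596. The 2 libraries of a condition differed by more than counting noise in all 8 conditions, with a chi-square per degree of freedom of 2.753 to 4.481 in 6 conditions, 9.801 in A549 at 0 h and 34.07 in NCI-H596 at 12 h. Calls that ended, or called values that moved by more than 1.5 times, without 1 of those 4 libraries are named in many places, often with the value without it. Not every such call or value is marked. Nothing in the labels says whether the 2 libraries came from separate cultures. The p-values rest on the spread between libraries of a condition, estimated together over all 8 conditions of both lines. A pair that disagrees in 1 line therefore also enters the tests of the other. As for identity, CDKN2A, which A549 cells are known to lack, had 0 counts in all 8 A549 libraries (a count of 0 allows up to 3) and at least 1466 in NCI-H596. The epithelial keratins KRT8 and KRT18 were abundant in both lines. The squamous markers TP63, KRT5 and DSG3 had 699 counts or more in NCI-H596 and 38 or fewer in A549, where CDH1 (2.54 to 12.6 CPM) and EPCAM (0.868 to 2.97 CPM) were also low. SOX2, the remaining squamous marker looked up, was low in both lines, with 5 to 47 counts in NCI-H596 and 3 to 20 in A549. The lung lineage markers were close to absent in both lines, with SFTPB at 0 counts and NKX2-1 at 18 or fewer.

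By level per kilobase of exon, KLF6 and KLF10 led the family before HGF in both lines, at different levels and with a different order behind them. Division by the merged exon length allows for gene length only roughly, since the transcripts expressed were not determined. The ranks depend on this division. KLF6 led in A549 at 0 h with 92.5 CPM per kb (CPM, counts scaled to the size of the library), 38.4% of the sum of the 10 members. It was followed by KLF10 (46.4) and KLF4 (40.1). In NCI-H596 at 0 h KLF6 (23 CPM per kb) and KLF10 (22.3 CPM per kb) led with overlapping libraries, and KLF3, KLF13, KLF4 and KLF16 followed between 16.3 and 12.3 CPM per kb. KLF2 was last in NCI-H596 at 0 h, at 0.557 CPM per kb. The order changed with HGF. In A549 KLF10 took the first place at 3 h, with 234 CPM per kb and 50.6% of the sum, kept it at 6 h (169 against 142 for KLF6) and stood second again at 12 h (80.0 against 125). In NCI-H596 KLF16 moved from the sixth place to the first at 3 h with 30.1 CPM per kb, ahead of KLF6 with 27.4. Without division by exon length, KLF13 (185 CPM) and KLF6 (168 CPM) stood above KLF16 (89.3 CPM) there. At 12 h KLF16 (18.1 CPM per kb) and KLF6 (17.2 CPM per kb) had overlapping libraries. Neighbours whose libraries overlapped were otherwise KLF11, KLF2 and KLF16 in A549 at 0 h, KLF2 and KLF16 at 6 h, KLF3 and KLF13 at 12 h, KLF7 and KLF9 in NCI-H596 at 0 h, and KLF10 and KLF13 at 12 h.

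**Figure D1:**
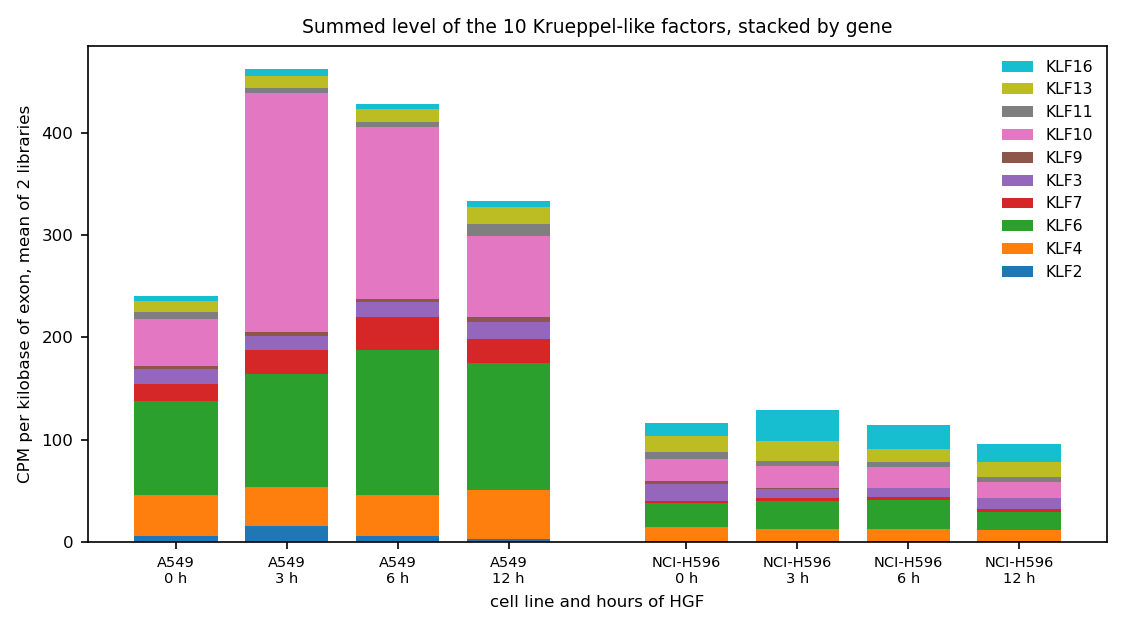
Summed level of the 10 members in each line and time, in CPM per kb of exon (means of 2 libraries), stacked by gene. The A549 bars are taller than the NCI-H596 bars at every time, and the KLF10 segment of A549 grows from 46.4 at 0 h to 234 at 3 h.

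A gene was called where its adjusted p was under 0.05. In A549, 5 of the 10 members were called at 3 h against 17.4% of all genes tested, 4 at 6 h against 34.2%, and all 10 at 12 h against 35.1%. By direction, 4 were higher than at 0 h and 1 lower at 3 h (10.3% and 7.16% of all genes), 3 higher and 1 lower at 6 h (16.4% and 17.8%), and 9 higher and 1 lower at 12 h (16.9% and 18.2%). In NCI-H596, 6 were called at 3 h against 31.7%, 7 at 6 h against 44.1%, and 8 at 12 h against 38.3%. There 3 were higher and 3 lower at 3 h (15.5% and 16.1% of all genes), 2 higher and 5 lower at 6 h (21.6% and 22.5%), and 2 higher and 6 lower at 12 h (18.3% and 20.1%). The median log2 fold change of the members was 0.46 in A549 at 12 h and -0.42 in NCI-H596 at 12 h, beside medians of -0.0019 and -0.024 over all genes tested. In the joint test over the 3 times, 9 members were called in A549 (all but KLF16, adjusted p = 0.0833) against 40.3% of all genes, and 9 in NCI-H596 (all but KLF2, adjusted p = 0.199) against 54.1%. Not all calls were equally firm, and the counts given next have no share of all genes beside them. The alternative fits left out any 1 library or changed the scaling, the tool, the filter, the block or the set of lines, and they kept the threshold on the adjusted p. Those kept in every alternative fit numbered 3 of 5, 3 of 4 and 5 of 10 in A549 at 3, 6 and 12 h, and 3 of 6, 3 of 7 and 6 of 8 in NCI-H596. A stricter call rule, which also asked for a log2 fold change of at least 1, left 2, 1 and 1 of the members in A549 and 2, 1 and 1 in NCI-H596, and KLF16 was called in the joint test of A549 without either NCI-H596 12 h library (adjusted p = 0.0343 and 0.0357) or A549 3 h replicate 1 (adjusted p = 0.028).

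**Figure D2:**
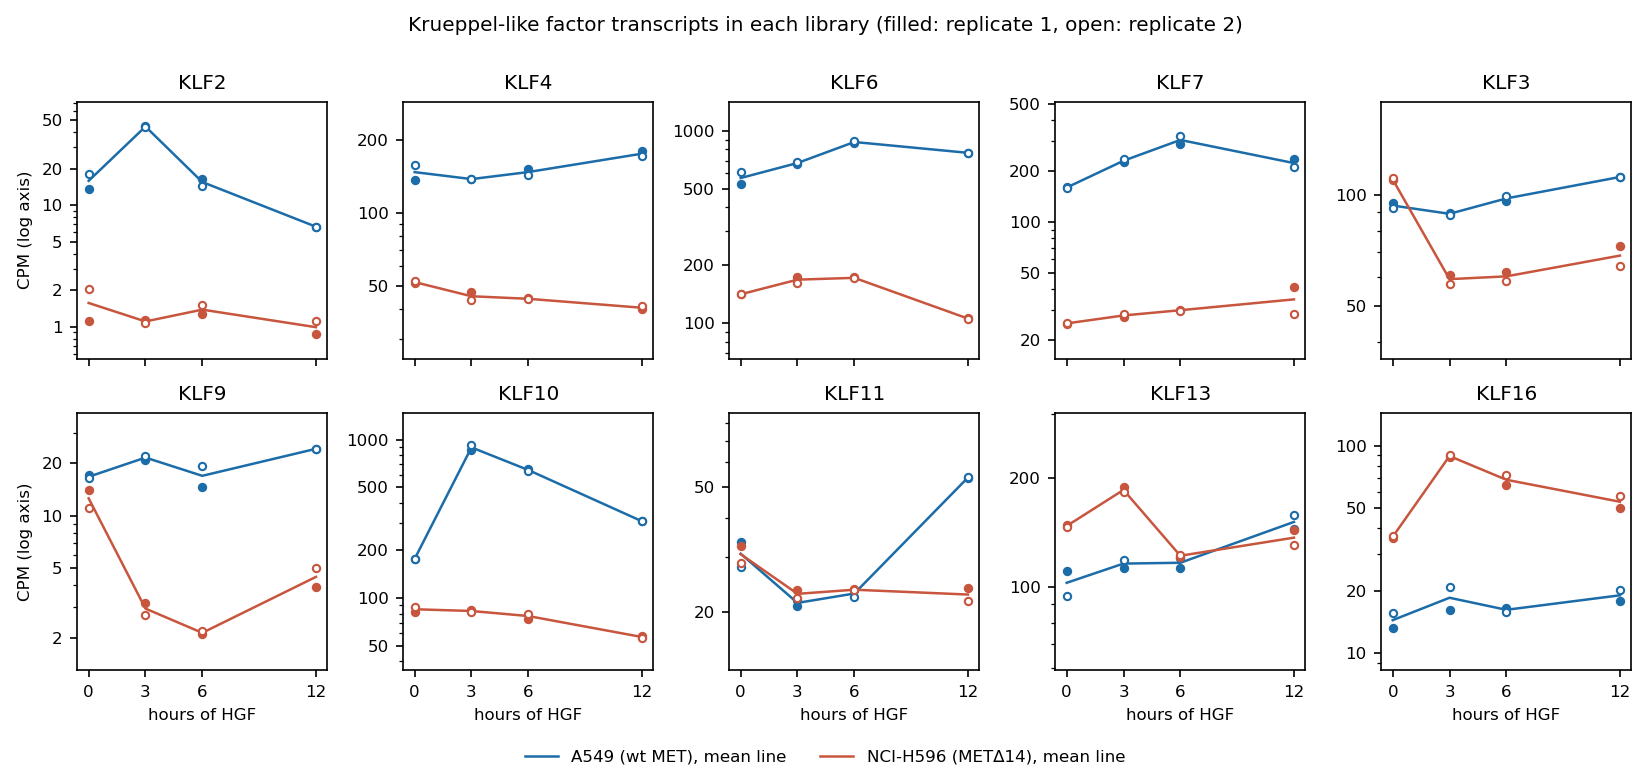
Level of each member in each of the 16 libraries, in CPM on a log axis, against hours of HGF (filled points replicate 1, open points replicate 2, lines through the means). KLF10 and KLF2 peak at 3 h in A549, whereas in NCI-H596 KLF9 and KLF3 drop and KLF16 rises at 3 h.

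**Figure D3:**
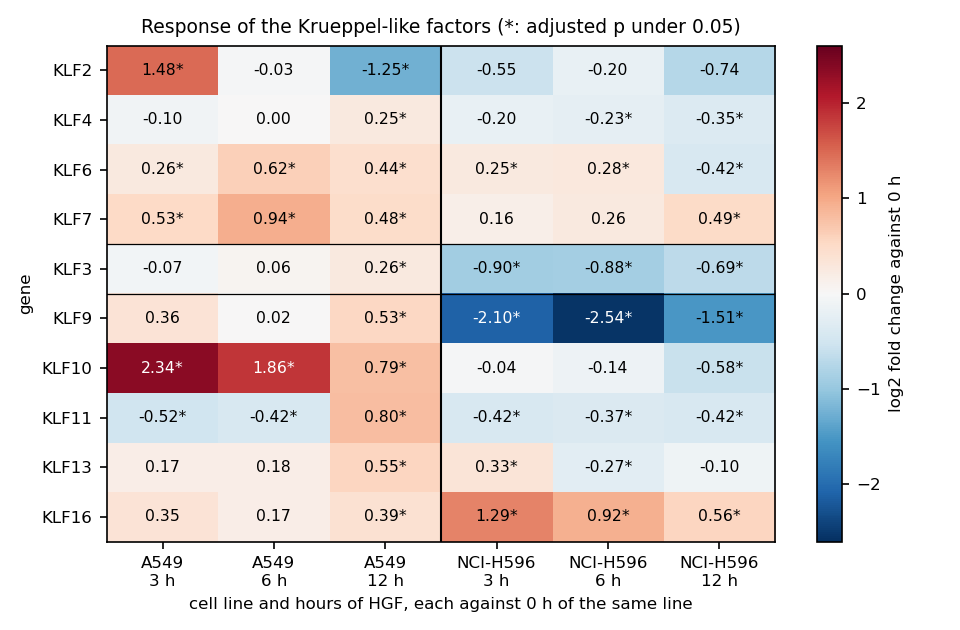
Log2 fold change of each member against 0 h of the same line, by line and hours of HGF, with an asterisk where the adjusted p is under 0.05. The darkest red cells are KLF10 in A549 at 3 h (2.34) and 6 h (1.86), and the darkest blue cells are KLF9 in NCI-H596 at 3 h (-2.10) and 6 h (-2.54).

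KLF2 (chr19:16324826-16328685 in hg38, as all gene positions here) restrains growth and inflammation in endothelium and was first described in lung. In A549 it stood at 13.7 and 18.1 CPM at 0 h, 44.5 and 44.3 CPM at 3 h, 16.6 and 14.5 CPM at 6 h, and 6.67 and 6.66 CPM at 12 h. Both libraries at 3 h were above, and both at 12 h below, all other A549 libraries. KLF2 thus rose 2.79-fold at 3 h (log2 fold change 1.48 ± 0.16 SE, n = 2 libraries per condition, adjusted p = 1.38e-05) and was back near its starting level at 6 h (-0.03 ± 0.16, adjusted p = 0.918, and -0.22 or 0.21 without A549 0 h replicate 1 or 2). At 12 h it had fallen 2.38-fold below 0 h (-1.25 ± 0.18, adjusted p = 9.13e-05). The steps from 3 to 6 h and from 6 to 12 h were also called (adjusted p = 7.95e-05 and 0.000346, where 3.1% and 11.6% of all genes were called), and these calls and those at 3 and 12 h were kept in every alternative fit. In NCI-H596 KLF2 had only 12 to 41 counts per library, between 0.876 and 2.04 CPM, and no time was called. At 12 h its log2 fold change there was -0.74, with a 95% interval from -1.39 to -0.09 and an adjusted p of 0.0913. That value moved to -0.20 (adjusted p = 0.779) without NCI-H596 0 h replicate 2 and to -1.07 (adjusted p = 0.0244) without replicate 1.

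KLF4 (chr9:107484852-107490482), a factor of the differentiated gut and skin epithelium, changed little in either line. In A549 it had 136 and 157 CPM at 0 h, 138 and 137 CPM at 3 h, 150.5 and 143 CPM at 6 h, and 179 and 170.5 CPM at 12 h, so that both libraries at 12 h were above the others. Its rise at 12 h was 1.19-fold (0.25 ± 0.08, adjusted p = 0.0223) and was lost when 1 of 3 libraries was left out, for example at adjusted p = 0.21 without A549 0 h replicate 1. In NCI-H596 KLF4 went from 51.3 and 52.0 CPM at 0 h to 46.9 and 43.5 CPM at 3 h, 44.2 and 43.96 CPM at 6 h, and 40.0 and 41.1 CPM at 12 h. All later libraries were below those at 0 h. The fall was 1.28-fold at 12 h (-0.35 ± 0.09, adjusted p = 0.00454), kept in every alternative fit, while that at 6 h (1.17-fold, adjusted p = 0.038) was lost without any 1 library of NCI-H596 at 0 or 6 h. An antisense gene covers 9.75% of the exons of KLF4, and its reads cannot be told apart if strand was not used in counting.

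KLF6 (chr10:3775996-3785281), a factor induced by injury and growth factors and often described as a tumour suppressor, was the most abundant of the 4 activators in both lines per kb. In A549 it stood at 528 and 607 CPM at 0 h, 669 and 689.9 CPM at 3 h, 861 and 886 CPM at 6 h, and 769 and 766 CPM at 12 h, with no overlap between 0 h and any later time. It was 1.54-fold higher at 6 h (0.62 ± 0.08, adjusted p = 4.64e-05) and 1.35-fold higher at 12 h (0.44 ± 0.08, adjusted p = 0.000899). At 3 h the rise of 1.2-fold (adjusted p = 0.041) was lost without A549 0 h replicate 1 (adjusted p = 0.281) or either 3 h library. In NCI-H596 KLF6 had 141 and 141 CPM at 0 h, 174 and 162 CPM at 3 h, 172 and 171 CPM at 6 h, and 106 and 104 CPM at 12 h. The 12 h libraries were below all others, a fall of 1.34-fold from 0 h (-0.42 ± 0.08, adjusted p = 0.00124) and of 1.63-fold from 6 h (adjusted p = 8.78e-05, where 18.6% of all genes were called). The rises at 3 h (0.25 ± 0.08, adjusted p = 0.0324) and 6 h (0.28 ± 0.08, adjusted p = 0.0125) were each lost when any 1 library of that time or of 0 h was left out. KLF6 was thus higher than at 0 h in A549 and lower in NCI-H596 at 12 h, and both of these calls were kept in every alternative fit.

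KLF7 (chr2:207074137-207173856) is known from neurons and fat cells. Its level in A549 was 161 and 159 CPM at 0 h, 225 and 235.5 CPM at 3 h, 289 and 323 CPM at 6 h, and 234 and 212 CPM at 12 h. The libraries at 6 h were the highest and those at 0 h the lowest. KLF7 rose 1.44-fold at 3 h (0.53 ± 0.12, adjusted p = 0.00529) and 1.91-fold at 6 h (0.94 ± 0.12, adjusted p = 2.53e-05), and the rise of 1.4-fold at 12 h (adjusted p = 0.00479) was lost without A549 12 h replicate 1 (adjusted p = 0.0646). In NCI-H596 KLF7 stood at 24.8 and 25.3 CPM at 0 h, 27.2 and 28.6 CPM at 3 h, 30.2 and 29.8 CPM at 6 h, and 41.2 and 28.4 CPM at 12 h. At 12 h the 2 libraries disagreed. The call at 12 h (0.49 ± 0.13, adjusted p = 0.00829) rested on replicate 1, without which the log2 fold change was 0.18 (adjusted p = 0.23), and it was also lost without NCI-H596 0 h replicate 1 (adjusted p = 0.0557).

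The CtBP-dependent repressor KLF3 (chr4:38664197-38701517), known from fat and blood cells, fell early and stayed low in NCI-H596. It had 109.8 and 111 CPM there at 0 h, 60.8 and 57.6 CPM at 3 h, 62.0 and 58.5 CPM at 6 h, and 72.7 and 64.4 CPM at 12 h, and no later library reached the level of 0 h. The fall was 1.87-fold at 3 h (-0.90 ± 0.08, adjusted p = 5.59e-07), 1.84-fold at 6 h (-0.88 ± 0.08, adjusted p = 4.16e-07) and 1.61-fold at 12 h (-0.69 ± 0.08, adjusted p = 8.52e-06), and all 3 calls were kept in every alternative fit. In A549 KLF3 moved between 88.6 and 112 CPM: 95.4 and 92.3 CPM at 0 h, 89.6 and 88.6 CPM at 3 h, 96.7 and 99.5 CPM at 6 h, and 112 and 112 CPM at 12 h. The rise at 12 h was 1.2-fold (0.26 ± 0.08, adjusted p = 0.0161) and was lost without either 12 h library or A549 0 h replicate 2. The antisense gene KLF3-AS1 covers 3.91% of the exons of KLF3.

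KLF9 (chr9:70384604-70414657), which follows glucocorticoids, thyroid hormone and the circadian clock in other tissues, fell further in NCI-H596 than any other member in either line. In NCI-H596 it stood at 14.1 and 11.1 CPM at 0 h, 3.18 and 2.72 CPM at 3 h, 2.10 and 2.18 CPM at 6 h, and 3.94 and 5.01 CPM at 12 h. All 6 later libraries lay below both libraries at 0 h. The fall was 4.29-fold at 3 h (-2.10 ± 0.19, adjusted p = 7.94e-07), 5.82-fold at 6 h (-2.54 ± 0.19, adjusted p = 8.38e-08) and 2.86-fold at 12 h (-1.51 ± 0.18, adjusted p = 1.24e-05). The partial return from 6 to 12 h, 2.04-fold, was called (adjusted p = 0.00546) but missed the threshold without NCI-H596 6 h replicate 2 (adjusted p = 0.0585). In A549 KLF9 had 17.1 and 16.4 CPM at 0 h, 21.0 and 22.1 CPM at 3 h, 14.7 and 19.2 CPM at 6 h, and 24.2 and 24.1 CPM at 12 h. The rise at 12 h (1.45-fold, 0.53 ± 0.15, adjusted p = 0.0105) was lost without A549 0 h replicate 2 (adjusted p = 0.0593) or 12 h replicate 1 (adjusted p = 0.0662), and the value at 3 h was 0.36 ± 0.15 (adjusted p = 0.108, and 0.0455 or 0.0345 without NCI-H596 12 h replicate 1 or 2). In bulk RNA, fewer cells with a transcript and less transcript per cell cannot be told apart, for KLF9 or for any other member.

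KLF10 (chr8:102648784-102655725), an early gene of TGF-beta and growth factor signalling that restrains proliferation, gave the largest rise among the members in either line. In A549 it stood at 177 and 177 CPM at 0 h, 867 and 922 CPM at 3 h, 649.7 and 639 CPM at 6 h, and 306 and 306 CPM at 12 h. The 4 times did not overlap. KLF10 rose 5.05-fold at 3 h (2.34 ± 0.08, adjusted p = 3.04e-11), and was still 3.64-fold higher at 6 h (1.86 ± 0.08, adjusted p = 6.46e-10) and 1.73-fold higher at 12 h (0.79 ± 0.08, adjusted p = 3.52e-06). The step down from 6 to 12 h was 2.11-fold (adjusted p = 5.15e-07) and that from 3 to 6 h 1.39-fold (adjusted p = 0.00255), the latter lost without A549 6 h replicate 2 (adjusted p = 0.0596). In NCI-H596 the same gene had 82.4 and 87.9 CPM at 0 h, 84.5 and 81.5 CPM at 3 h, 74.3 and 80.03 CPM at 6 h, and 57.5 and 56.3 CPM at 12 h. The first 3 times there lay close together, with -0.04 at 3 h (95% interval from -0.19 to 0.11, adjusted p = 0.757). At 12 h KLF10 had fallen 1.5-fold (-0.58 ± 0.08, adjusted p = 4.79e-05), in every alternative fit.

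KLF11 (chr2:10042849-10054836), the close relative of KLF10, rose in A549 at 12 h, when KLF10 was already on its way down. Its level in A549 was 33.5 and 27.9 CPM at 0 h, 21.0 and 21.9 CPM at 3 h, 23.5 and 22.4 CPM at 6 h, and 53.5 and 53.8 CPM at 12 h. At 12 h both libraries were above all earlier ones, 1.75-fold over 0 h (0.80 ± 0.10, adjusted p = 4.18e-05) and 2.34-fold over 6 h (adjusted p = 3.95e-06). The falls at 3 h (-0.52 ± 0.11, adjusted p = 0.00365) and 6 h (-0.42 ± 0.11, adjusted p = 0.00686) missed the threshold without A549 0 h replicate 1 (adjusted p = 0.0548 and 0.0959), and that at 6 h also without A549 6 h replicate 2 (adjusted p = 0.0717). In NCI-H596 KLF11 had 32.5 and 28.8 CPM at 0 h, 23.6 and 22.2 CPM at 3 h, 23.7 and 23.5 CPM at 6 h, and 23.9 and 21.7 CPM at 12 h. Its falls of 1.34-fold at 3 h, 1.3-fold at 6 h and 1.34-fold at 12 h (adjusted p = 0.00696, 0.00899 and 0.00597) were all lost without NCI-H596 0 h replicate 1 (adjusted p = 0.083, 0.0878 and 0.0681). Those at 3 and 6 h were also lost without replicate 2 of the same time (adjusted p = 0.0663 and 0.0522). Genes on the other strand cover 9.06% of the exons of KLF11.

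KLF13 (chr15:31326835-31435665), known as a regulator of chemokine genes in T cells, held rank 4 of the 10 per kb in NCI-H596 at each time and rank 6 or 7 in A549. In A549 it had 111 and 95.0 CPM at 0 h, 113 and 119 CPM at 3 h, 113 and 121 CPM at 6 h, and 144 and 158 CPM at 12 h. The 12 h libraries stood above the rest, a rise of 1.47-fold (0.55 ± 0.09, adjusted p = 0.000228) that every alternative fit kept. In NCI-H596 KLF13 went from 149 and 146 CPM at 0 h to 188 and 182 CPM at 3 h, 121 and 123 CPM at 6 h, and 143 and 130.5 CPM at 12 h. It was above 0 h at 3 h (1.26-fold, adjusted p = 0.00886) and below it at 6 h (1.21-fold, adjusted p = 0.0189), and the former was lost without NCI-H596 0 h replicate 2 (adjusted p = 0.0585) or 3 h replicate 1 (adjusted p = 0.0583), the latter without any 1 library of 0 or 6 h (adjusted p from 0.0562 to 0.0761). The step down from 3 to 6 h itself was 1.52-fold (-0.60 ± 0.09, adjusted p = 0.000667, where 9.77% of all genes were called) and was kept throughout.

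KLF16 (chr19:1852399-1863579), a widely expressed repressor, rose more in NCI-H596 than any other member. It stood there at 35.9 and 36.9 CPM at 0 h, 88.6 and 89.9 CPM at 3 h, 64.9 and 72.4 CPM at 6 h, and 50.3 and 57.3 CPM at 12 h, with no overlap between the times. The rise was 2.45-fold at 3 h (1.29 ± 0.12, adjusted p = 7.75e-07), 1.89-fold at 6 h (0.92 ± 0.11, adjusted p = 1.39e-05) and 1.47-fold at 12 h (0.56 ± 0.12, adjusted p = 0.00158), in every alternative fit. In A549 KLF16 had 13.3 and 15.6 CPM at 0 h, 16.2 and 20.9 CPM at 3 h, 16.6 and 15.9 CPM at 6 h, and 17.9 and 20.2 CPM at 12 h. These libraries lay close together, and the call at 12 h (0.39 ± 0.13, adjusted p = 0.0324) was lost without any 1 of 9 libraries, for example at adjusted p = 0.225 without A549 0 h replicate 1. A gene on the other strand covers 16.3% of the exons of KLF16, the highest share among the members.

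Whether the response differed between A549 and NCI-H596 was asked by a test of the difference of the fold changes, joint over the 3 times. MET status and line cannot be told apart in this test. All 10 members were called in it, against 37.6% of all genes tested, and all 10 calls were kept in every alternative fit. With a log2 difference of at least 1 at some time asked for as well, 4 were left. Neither the 10 kept nor these 4 have a share of all genes beside them. At single times the difference (NCI-H596 minus A549) was called for 5 members at 3 h, 7 at 6 h and 7 at 12 h, against 17.4%, 30.2% and 24% of all genes. The calls were 1 positive and 4 negative at 3 h (8.93% and 8.47% of all genes), 1 positive and 6 negative at 6 h (16.4% and 13.8%), and 0 positive and 7 negative at 12 h (13% and 11%). KLF10 differed by -2.38 ± 0.11 at 3 h, -2.00 ± 0.11 at 6 h and -1.37 ± 0.11 at 12 h on the log2 scale (adjusted p = 5.18e-09, 2.07e-08 and 1.55e-06). KLF9 differed by -2.46 ± 0.24, -2.56 ± 0.24 and -2.04 ± 0.23 at the same times (adjusted p = 6.14e-06, 2.79e-06 and 2.23e-05). KLF3 gave -0.83, -0.94 and -0.94 with SEs of 0.11 (adjusted p = 9.89e-05, 1.47e-05 and 2.75e-05). In these 3 members the difference was negative at each time, in KLF10 with a rise in A549 and in KLF3 and KLF9 with a fall in NCI-H596.

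The other members were called at some times. KLF2 differed at 3 h (-2.03 ± 0.35, adjusted p = 0.000975), while at 12 h its difference was 0.51 (95% interval from -0.25 to 1.27, adjusted p = 0.38). KLF16 was the one positive call, with 0.94 ± 0.18 at 3 h (adjusted p = 0.00183) and 0.75 ± 0.18 at 6 h (adjusted p = 0.00482). KLF11 was called at 12 h (-1.22 ± 0.15, adjusted p = 4.05e-05). KLF4 and KLF13 differed at 12 h by -0.61 and -0.66 (adjusted p = 0.00163 and 0.00132), and KLF13 also at 6 h (-0.45, adjusted p = 0.0113). KLF6 differed at 12 h by -0.86 ± 0.12 (adjusted p = 0.000128) and at 6 h by -0.34 (adjusted p = 0.0404), the latter lost in several leave-one-out fits. KLF7 differed at 6 h (-0.68 ± 0.17, adjusted p = 0.00817) and gave 0.01 at 12 h (95% interval from -0.33 to 0.35), which became -0.31 and 0.23 without NCI-H596 12 h replicate 1 and 2. At 12 h, 6 members (KLF3, KLF4, KLF6, KLF9, KLF10 and KLF11) were called in both lines in opposite directions, which 3.51% of all genes were, and for KLF3, KLF4, KLF9 and KLF11 one of the 2 calls was lost in some leave-one-out fits as given above.

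**Figure D4:**
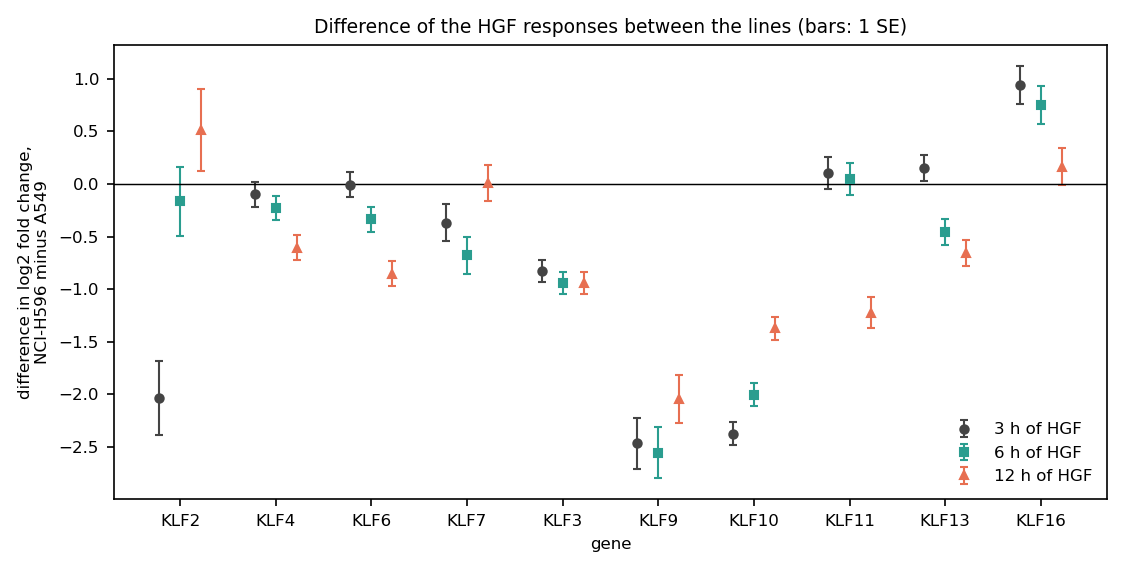
Difference of the HGF responses, NCI-H596 minus A549, in log2 fold change for each member at 3, 6 and 12 h (bars: 1 SE). KLF9 and KLF10 lie between -1.37 and -2.56 at all 3 times, KLF3 near -0.9, and KLF16 above 0 at 3 and 6 h.

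A model with line and time as additive terms, which assumes 1 time course for both lines, called 5 members (KLF2, KLF7, KLF10, KLF11 and KLF16), against 30.6% of all genes. KLF9 (adjusted p = 0.0801) and KLF3 (adjusted p = 0.0531), which fell in NCI-H596 at all 3 times, were not called in that model. Its log2 fold change for KLF10 at 3 h was 1.06, between the values of the lines.

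At 0 h, before HGF, 9 of the 10 members differed between the lines, a share close to the 80.2% of all genes that did. KLF2 was 9.77-fold, KLF7 6.38-fold, KLF6 4.03-fold, KLF4 2.84-fold and KLF10 2.08-fold lower in NCI-H596 (adjusted p = 4.58e-09 or lower). In all, 6 members were lower in NCI-H596 (39.6% of all genes), among them all 4 activators, and 3 were higher (40.6%). KLF16 was 2.52-fold (adjusted p = 1.15e-07), KLF13 1.43-fold (adjusted p = 5.77e-05) and KLF3 1.18-fold (adjusted p = 0.00993) higher there. KLF11 did not pass the test, with -0.01 and a 95% interval from -0.21 to 0.20. KLF9 was 1.34-fold lower (adjusted p = 0.0199), and this call was lost without NCI-H596 0 h replicate 2 (-0.23, adjusted p = 0.268), with DESeq2 (adjusted p = 0.0601) and with a replicate block (adjusted p = 0.121).

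Another 6 lists of related genes, written by name, are described by their counts. Over all genes tested, 40.3% were called in A549 and 54.1% in NCI-H596 at any time, and 37.6% in the test of the difference. At 3 h, 10.3% were higher and 7.16% lower in A549, and 15.5% were higher and 16.1% lower in NCI-H596. Of 7 other KLF genes, 4 were tested, and 3 were called in A549, 4 in NCI-H596 and 1 in the test of the difference. KLF15, not called in that test (adjusted p = 0.122) and described after its values were seen, rose at 3 h in both lines, by 1.14 in A549 and 1.11 in NCI-H596 (adjusted p = 0.003 and 0.000397). KLF5, a growth-promoting factor of epithelial cells, stood in A549 at 119 and 103 CPM at 0 h and 185.5 and 186 CPM at 12 h, and in NCI-H596 at 242 and 233.5 CPM at 0 h and 155 and 162 CPM at 12 h. It rose at 12 h in A549 (0.75 ± 0.08, adjusted p = 7.89e-06) and fell in NCI-H596 (-0.59 ± 0.08, adjusted p = 3.6e-05), and the difference of -1.33 ± 0.11 was called (adjusted p = 1.66e-06), all 3 also without any 1 library. The SP factors bind the same GC boxes, and 7 of 9 were tested, of which 5 were called in A549, 6 in NCI-H596 and 6 in the test of the difference. In NCI-H596 at 3 h, 1 of them was higher and 5 were lower, with a median of -0.35 beside -0.05 over all genes, and in A549 at 3 h 3 were higher and 0 lower, with a median of -0.17 beside -0.04. SP1, the most studied of them, went from 126 and 122 CPM at 0 h to 62.4 and 64.4 CPM at 3 h in NCI-H596 (-0.97 ± 0.11, adjusted p = 6.42e-06), with -0.17 in A549 (adjusted p = 0.299). SP4 rose in A549 at 3 h (0.68 ± 0.11, adjusted p = 0.000407) and fell in NCI-H596 (-0.50 ± 0.11, adjusted p = 0.00294), the latter lost without NCI-H596 3 h replicate 2 (adjusted p = 0.0558).

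Among 9 corepressor genes (CtBP, SIN3 and histone deacetylase subunits), 3 were called in A549, 4 in NCI-H596 and 2 in the test of the difference, beside 40.3%, 54.1% and 37.6% of all genes. In NCI-H596 at 3 h 2 were higher and 1 lower (15.5% and 16.1% of all genes). CTBP2 and HDAC2, named for their call in the test of the difference (adjusted p = 6.2e-05 and 0.00065), had positive mean log2 fold changes in NCI-H596 (0.405 and 0.545). Genes on the other strand cover 34.2% of the exons of CTBP2, and their reads cannot be told apart if strand was not used in counting. SIN3A and SAP30 were not called in that test (adjusted p = 0.0681 and 0.135). The scaffold gene SIN3A stood in NCI-H596 at 91.8 and 92.0 CPM at 0 h, 64.2 and 60.5 CPM at 3 h and 48.2 and 52.9 CPM at 6 h, and fell at both times (-0.56 and -0.86, adjusted p = 0.000317 and 3.79e-06). In A549 it fell at 6 h (-0.45 ± 0.09, adjusted p = 0.00192). Its partner SAP30 fell at 6 h in A549 (-0.48 ± 0.13, adjusted p = 0.0107) and in NCI-H596 (-0.76 ± 0.13, adjusted p = 0.000223), a difference between the lines that was not called (adjusted p = 0.279). Its call in A549 was lost without A549 0 h replicate 2 (adjusted p = 0.0844) or either 6 h library (adjusted p = 0.0961 and 0.0559).

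Of 10 genes known to act upstream of KLFs or on their turnover, 7 were called in A549 and 8 in NCI-H596 at any time, and 8 in the test of the difference, beside 40.3%, 54.1% and 37.6% of all genes. At 3 h 5 were higher and 0 lower in A549 (10.3% and 7.16% of all genes), whereas 3 were higher and 5 lower in NCI-H596 (15.5% and 16.1%). SRF, the factor that binds CArG boxes, had 48.5 and 49.8 CPM in NCI-H596 at 0 h and 114.6 and 119 CPM at 3 h (1.25 ± 0.08, adjusted p = 4e-08), with 0.34 ± 0.08 in A549 (adjusted p = 0.00902, and 0.0912 without A549 3 h replicate 1). The difference at 3 h was called (0.91 ± 0.11, adjusted p = 6.11e-05). The nuclear receptor gene NR1D1 went from 59.3 and 59.6 CPM to 21.0 and 23.1 CPM at 6 h in NCI-H596 (-1.43 ± 0.14, adjusted p = 1.25e-06) and rose in A549 at 6 h (0.68 ± 0.12, adjusted p = 0.000732, and 0.46 without A549 0 h replicate 1), although 18% of its exons are shared with THRA on the other strand. MEF2D, picked out after its values were seen because KLF2 is a known MEF2 target, stood in A549 at 202 and 191 CPM at 0 h and 297 and 293 CPM at 3 h. It rose at 3 h (0.59 ± 0.09, adjusted p = 0.000505), and in NCI-H596 its value at 3 h was -0.19 (adjusted p = 0.148). MEF2A, of the same family and list, rose at 3 h in NCI-H596 (0.49 ± 0.09, adjusted p = 0.000738), where KLF2 was not called, and was higher at 12 h in A549 (0.54 ± 0.09, adjusted p = 0.000422), where KLF2 was lower. At 3 h in A549 its value was 0.34 (adjusted p = 0.022), a call lost without A549 0 h or 3 h replicate 2.

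Of 9 genes described as KLF targets, 8 were tested and 5 were called in A549, 6 in NCI-H596 and 6 in the test of the difference, beside 40.3%, 54.1% and 37.6% of all genes. SMAD7, an inhibitor of TGF-beta signalling, had 41.7 and 45.5 CPM at 0 h and 88 and 103.9 CPM at 3 h in A549, and 9.84 and 8.69 CPM at 0 h and 4.32 and 4.64 CPM at 3 h in NCI-H596. It rose in A549 (1.14 ± 0.11, adjusted p = 4.58e-06) and fell in NCI-H596 (-1.04 ± 0.16, adjusted p = 0.000135), with a difference of -2.17 ± 0.19 (adjusted p = 2.27e-06). The cadherin gene CDH1 fell in A549 from 12.6 and 5.94 CPM at 0 h to 2.54 and 2.89 CPM at 6 h (-1.77 ± 0.31, adjusted p = 0.000744), with 0.08 in NCI-H596 (adjusted p = 0.761). Its libraries at 0 h in A549 disagreed, and without replicate 1 the value was -1.13 at 6 h (adjusted p = 0.00787), -1.09 at 12 h (adjusted p = 0.00846) and -0.26 at 3 h (adjusted p = 0.571), and the call at 3 h (-0.90, adjusted p = 0.0473) was lost in 13 of the 16 fits that left out 1 library.

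Genes that follow glucocorticoids and the clock together with KLF9 in other tissues formed the last list, of which 4 of 5 were tested. At any time, 3 were called in A549, 4 in NCI-H596 and 3 in the test of the difference, beside 40.3%, 54.1% and 37.6% of all genes. At 3 h 3 were higher and 0 lower in A549 (median 0.55), beside 10.3% and 7.16% of all genes. In NCI-H596 1 was higher and 2 lower (median -0.23), beside 15.5% and 16.1%. At 12 h 0 were higher and 0 lower in A549 (median 0.07), beside 16.9% and 18.2%. In NCI-H596 1 was higher and 3 lower (median -1.61), beside 18.3% and 20.1%. Medians over all genes in A549 and NCI-H596 were -0.044 and -0.053 at 3 h and -0.0019 and -0.024 at 12 h. The listed genes did not all fall in NCI-H596. FKBP5 went there from 48.4 and 51.3 CPM at 0 h to 68.2 and 59.0 CPM at 12 h. Its mean log2 fold change over the 3 times was 0.21 (joint test, adjusted p = 0.0284). DUSP1 had 109 and 110 CPM there at 0 h, 206 and 181 CPM at 3 h, and 29.9 and 36.1 CPM at 12 h. TSC22D3, induced by glucocorticoids, stood in NCI-H596 at 97.8 and 88.4 CPM at 0 h, 50.2 and 45.1 CPM at 3 h, 29.2 and 32.6 CPM at 6 h, and 27.4 and 37.0 CPM at 12 h. No later library reached the level of 0 h, and the fall at 6 h was -1.58 ± 0.12 (adjusted p = 1.25e-07). The clock gene PER1 fell in NCI-H596 from 48.8 and 51.2 CPM at 0 h to 15.1 and 16.3 CPM at 6 h (-1.67 ± 0.15, adjusted p = 4.13e-07). In A549 both rose at 6 h (TSC22D3 0.71 ± 0.12, adjusted p = 0.000383; PER1 0.83 ± 0.13, adjusted p = 0.000154, and 0.63 without A549 0 h replicate 1), where KLF9 stood at 0.02 (adjusted p = 0.974).

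**Figure D5:**
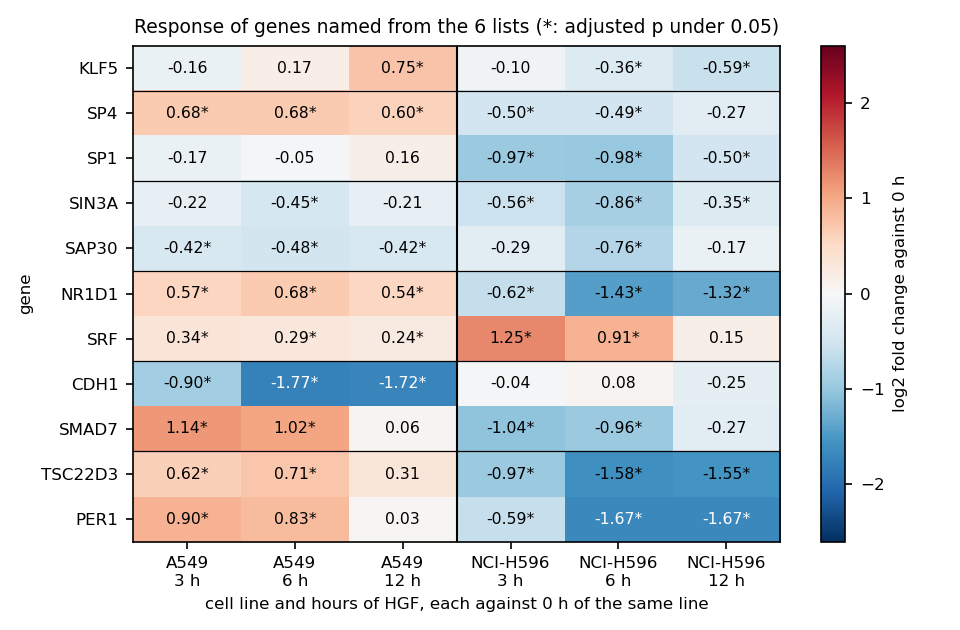
Log2 fold change against 0 h of the same line for the 11 genes named by rule from the 6 lists, with an asterisk where the adjusted p is under 0.05. The SAP30 asterisks in A549 were lost in 14, 3 and 2 of the 16 fits without 1 library at 3, 6 and 12 h. In A549 the SRF asterisk at 12 h was lost in 6 such fits, and the CDH1 asterisk at 3 h in 13. Leaving out A549 0 h replicate 2 removed all of these except that of CDH1. SRF in A549 at 3 and 6 h and SP4 in NCI-H596 at 3 h each lost theirs in 1 fit. NR1D1, TSC22D3 and PER1 are red in A549 at 3 and 6 h and blue in NCI-H596 at all 3 times, and CDH1 carries asterisks in A549 at all 3 times, of which the one at 3 h was lost without A549 0 h replicate 1 (adjusted p = 0.571), as was that of NR1D1 at 3 h (adjusted p = 0.063).

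For the 3 members with the largest mean response, the genes whose levels ran most alike over the 16 libraries were sought by Pearson correlation of log2 CPM, centred within each line, over 9637 genes. The points share libraries and time courses, and the coefficients are descriptions. KLF10 was followed most closely by the early response genes JUNB (0.981), IER2 (0.966) and FOSB (0.962), and rank correlation gave JUNB (0.982) and FOSB (0.962) again. KLF9 was followed by TRAFD1 (0.944), TP53INP1 (0.936) and KLHL24 (0.936), whereas rank correlation named PHACTR4, CTDSPL2 and KIAA0586 in their place. KLF2, at low counts in NCI-H596, was followed less closely, by MOAP1 (0.868), CIP2A (0.863) and MEPCE (0.853), and rank correlation named ZNF689, FAM83D and OTUB1.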

How the data were processed

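PolyA RNA of 16 libraries (2 lines, 4 times, 2 replicates) was sequenced with an Illumina TruSeq kit. The authors trimmed adapters, mapped reads with STAR to hg38 and deposited whole-number counts per gene, not normalized. The submitters' processing notes name STAR 2.5.0 and RSEM 1.3.2 without their roles. If RSEM made the counts they were rounded before deposit. Which annotation was used, and whether counting was stranded, is not given in the sources used here. Libraries of wt MET carry a slightly different line name in the table than in their titles and were matched by the remainder of each name. The labels call that line A549, whereas the text of the study uses another wt MET line in its other experiments.

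The deposited counts were filtered with filterByExpr (minimum count 10, minimum total 15), scaled by TMM and fitted with edgeR 4.0.16 (R 4.3.3, limma 3.58.1) by robust quasi-likelihood with 1 coefficient per line and time over all 16 libraries. F tests were adjusted by Benjamini and Hochberg over 15067 genes, with a threshold of 0.05. The standard error is the absolute log2 fold change over the square root of F. CPM use TMM-scaled library sizes, log2 CPM a prior count of 2, and levels per kb the merged exons of GENCODE in hg38. DESeq2 1.42.0, other filters and scaling, a replicate block, each line fitted alone and leaving out each library were the alternative fits, and a minimum log2 fold change of 1 was an alternative call rule. Leaving out each library for the genes named from the lists was chosen after seeing the data. Scripts were tested on simulated data. From each list, the text names the 2 genes with the largest mean absolute log2 fold change over the 6 responses among genes called in either line with a mean log2 CPM no lower than 3. The same minimum applied to genes of like pattern, 3 for each of 3 members. The members and lists were chosen with earlier results of these data known. Libraries with amplified MET were not analysed here. Numbers of replicates did not pair libraries: over 6 pairs of times per line, the correlation of the differences between replicates 1 and 2 ranged from -0.0528 to 0.0345 in A549 and from -0.159 to 0.035 in NCI-H596.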

Additional observations from a re-analysis of the deposited data

Results flagged for a closer look

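All 10 members were picked out because their response to HGF differed between A549 and NCI-H596 in the joint test of edgeR, with no explanation weighed. The adjusted p was 1.36e-08 for KLF10, 2.81e-06 for KLF9, 1.64e-05 for KLF11, 1.93e-05 for KLF3, 0.000134 for KLF6, 0.000302 for KLF13, 4e-04 for KLF2, 0.00139 for KLF16, 0.00385 for KLF4 and 0.0129 for KLF7. At 3 h, KLF10 and KLF2 rose in A549, whereas KLF9 and KLF3 fell and KLF16 rose in NCI-H596.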

How the results depend on the processing

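Of the values of single members in 14 contrasts, no direction changed among those called in either fit (0), while 54 changed sign where neither fit made a call. The alternative values numbered 3690 in all, but these also hold the 3 joint tests, which have no direction and could not change sign. Another scaling moved the medians of all genes by at most 0.0225 (log2). Requiring a log2 fold change of at least 1 left 2, 1 and 1 members called at 3, 6 and 12 h in A549. In NCI-H596 it left 2, 1 and 1. At any time 2 were left in A549, 2 in NCI-H596 and 4 in the test of the difference. These counts, and the ranges given next, have no share of all genes beside them. The number of all genes called also changed with the library left out. Leaving out single libraries gave 3 to 7, 3 to 5 and 5 to 10 members at 3, 6 and 12 h in A549, 4 to 6, 3 to 8 and 7 to 8 in NCI-H596, 6 to 10 and 6 to 9 at any time, 8 to 9 at 0 h and 10 in each fit for the test of the difference. The lowest count at 12 h in A549 came without A549 12 h replicate 1, when KLF3, KLF4, KLF7, KLF9 and KLF16 lost their calls. DESeq2 changed the side of the threshold for 1 value upward and 4 downward, no filter for 1 and 9, a minimum of 10 counts in every library for 2 and 1, DESeq2's size factors for 0 and 2, and each line fitted alone (not possible for comparisons between the lines) for 4 and 5.

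A replicate block kept 165 of the 170 calls and non-calls of single members and removed 5 calls: KLF6 at 3 h in A549 (0.26, adjusted p = 0.057), KLF4 at 6 h in NCI-H596 (-0.23, adjusted p = 0.0622), KLF6 in the difference at 6 h (-0.34, adjusted p = 0.0523), KLF7 at any time in NCI-H596 (adjusted p = 0.0532) and KLF9 at 0 h (-0.32, adjusted p = 0.121). The cause was not tested. Depth limits KLF2 in NCI-H596, with 12 to 41 counts per library.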
